A study of Anthurium andraeanum with 18 samples.

Results

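The genes described here make, split, signal with or carry sugars in leaves of Anthurium andraeanum, an ornamental aroid of tropical origin. They are 125 of the 132108 transcript groups in the deposited expression table, of which 19112 have a Swiss-Prot protein name. A transcript group is a set of assembled transcripts that the assembler treated as 1 gene, since no genome was used. The members were chosen by words in the protein name of the best Swiss-Prot match, ignoring case: sucrose synthase, sucrose-phosphat, invertase, fructofuranosidase, trehalose, SWEET, sugar transport, sucrose transport, hexose transport, hexokinase and fructokinase. The rule reads protein names and no levels. The study compared cultivars Oregon and Fantasy Love at 25 °C, 6 °C and 4 °C in 6 groups of 3 libraries. All plants were at full flowering in growth chambers with 12 h of light a day. Controls stayed at 25 °C, and cold plants went through 3 days at 15 °C, 3 days at 6 °C and 3 days at 4 °C, with leaves taken after the 6 °C and the 4 °C steps. The 4 °C leaves had therefore passed through 15 °C and 6 °C, so temperature and time in the cold cannot be told apart. The controls are labelled 0 days and the Oregon control titles say 3 days, so the day of their sampling is uncertain.

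Sucrose is the main sugar that leaves export. Sucrose-phosphate synthase and sucrose phosphatase make it, and sucrose synthase and the invertases split it into hexoses or UDP-glucose, which hexokinase and fructokinase then phosphorylate for further use. Trehalose-phosphate synthase and phosphatase make and remove trehalose phosphate, a signal of sucrose status in plants, and the synthases fall into a catalytic class represented by TPS1 and a second class, TPS5 to TPS11, regarded as mostly regulatory. Sugar transporters of the STP, SUT, SWEET and ERD6-like families carry hexoses and sucrose across the plasma membrane and the vacuolar membrane, and sugars accumulate in the leaves of many plants in the cold.

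By role, the members were 27 trehalose-phosphate synthases, 4 trehalose-phosphate phosphatases, 6 sucrose-phosphate synthases or phosphatases, 13 sucrose synthases, 18 invertases, 9 hexokinases, 5 fructokinases, 9 SWEET proteins, 3 sucrose transporters and 19 other sugar transporters, mostly of the STP family. The words of the rule also matched 8 phosphofructokinases, 2 fructokinase-like proteins and 2 transporters of nucleotide sugars. In all, 115 members had enough counts to be tested and 10 did not. The untested members were SWEET6B, SWEET7C, INV2, SUS5, SUS6, SUS7, a hexokinase named hxkA, and 1 transcript group each named CINV1, PFK3 and TPS9, whose total over the 18 libraries was between 11 and 65 counts. The 125 members carried 65 protein names in 91 assembly components, and 55 shared a component with another member. Their lengths ran from 202 to 4804 bases with a median of 1331, and 21 were shorter than 500 bases. Transcript groups of 1 name can be pieces or alleles of 1 gene or share reads, so a count of transcript groups is not a count of genes, and which copy a read belonged to is uncertain. For 3 members the best match came from outside the plants (hxkA, sqv-7 and DDB_G0278631).

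The libraries held 14769909 to 21911024 estimated counts. Replicate 2 of Fantasy Love at 6 °C stood apart. It had the fewest transcript groups detected (59649 against 66064 to 98534 in the others). Transcript groups named for yeast reading frames that lie opposite the ribosomal RNA took 4.00% of its counts, against 0.179% to 0.990% in the other 17 libraries. That list was added after the data were seen. Results for Fantasy Love at 6 °C are therefore given with and without this library where it matters. The summed level of 26 leaf mesophyll markers was 69812.5 to 91033.7 CPM (counts scaled to library size) at 25 °C and 3861.8 to 11589.4 CPM in the cold libraries, and that of 14 xylem markers was 726 to 1647 CPM against 89.8 to 394 CPM. For 45 markers of cuticle-forming epidermis the sum was 2304 to 4307 CPM at 25 °C and 215 to 1364 CPM in the cold, except in the library that stood apart, where it was 3744 CPM. Of the 39 epidermis markers tested, 26 fell and 4 rose in Oregon at 6 °C, and 16 fell and 8 rose in Fantasy Love. All 6 phloem markers were detected in every group, with a sum of 74.4 to 109 CPM at 25 °C and 89.8 to 170 CPM in the cold. Single phloem markers were split, with a test for 5 of them. Falls outnumbered rises by 1 to 0 and then 2 to 1 in Oregon, 6 °C before 4 °C. For Fantasy Love the calls were 1 fall and 1 rise, then 3 falls and 1 rise. The part of these shifts in the results below was not tested, and in whole leaves fewer cells of a type and less RNA per cell cannot be told apart. All levels below are CPM scaled by the trimmed mean of M values unless TPM, a level per transcript length, is named. A member is said to have risen or fallen where the edgeR quasi-likelihood test gave an adjusted p below 0.05 over all 51670 transcript groups tested and the change was at least 2-fold, that is 1 on the log2 scale.

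The members' summed level was higher in the cold in both cultivars. In Oregon it went from 2814 ± 15.7 CPM at 25 °C to 6908 ± 1286 at 6 °C and 4331 ± 681 at 4 °C (SD, n = 3). In Fantasy Love the sums were 2285 ± 155, 3933 ± 1765 and 4294 ± 869 CPM. Members took 0.178% to 0.241% of all counts in the 25 °C libraries and at most 0.801% in the cold. In Oregon at 6 °C, 41 members rose and 25 fell, which was 35.7% and 21.7% of those tested, while 28.3% of all tested transcript groups rose and 20.1% fell. In Oregon at 4 °C, 41 rose and 25 fell, the same shares, against 28.4% and 20.6% of all tested. In Fantasy Love at 6 °C, 45 rose and 23 fell, 39.1% and 20% of those tested, against 23.8% and 16.6%. In Fantasy Love at 4 °C, 44 rose and 25 fell, 38.3% and 21.7%, against 28.5% and 21.6%. The shares that fell were near those of all transcript groups in both cultivars. The members' median log2 change was 0.21, 0.26, 0.55 and 0.42 in these comparisons, and that of all tested transcript groups was 0.36, 0.39, 0.30 and 0.39. Without the Fantasy Love 6 °C library that stood apart, 49 members rose and 23 fell in that comparison.

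**Figure D1:**
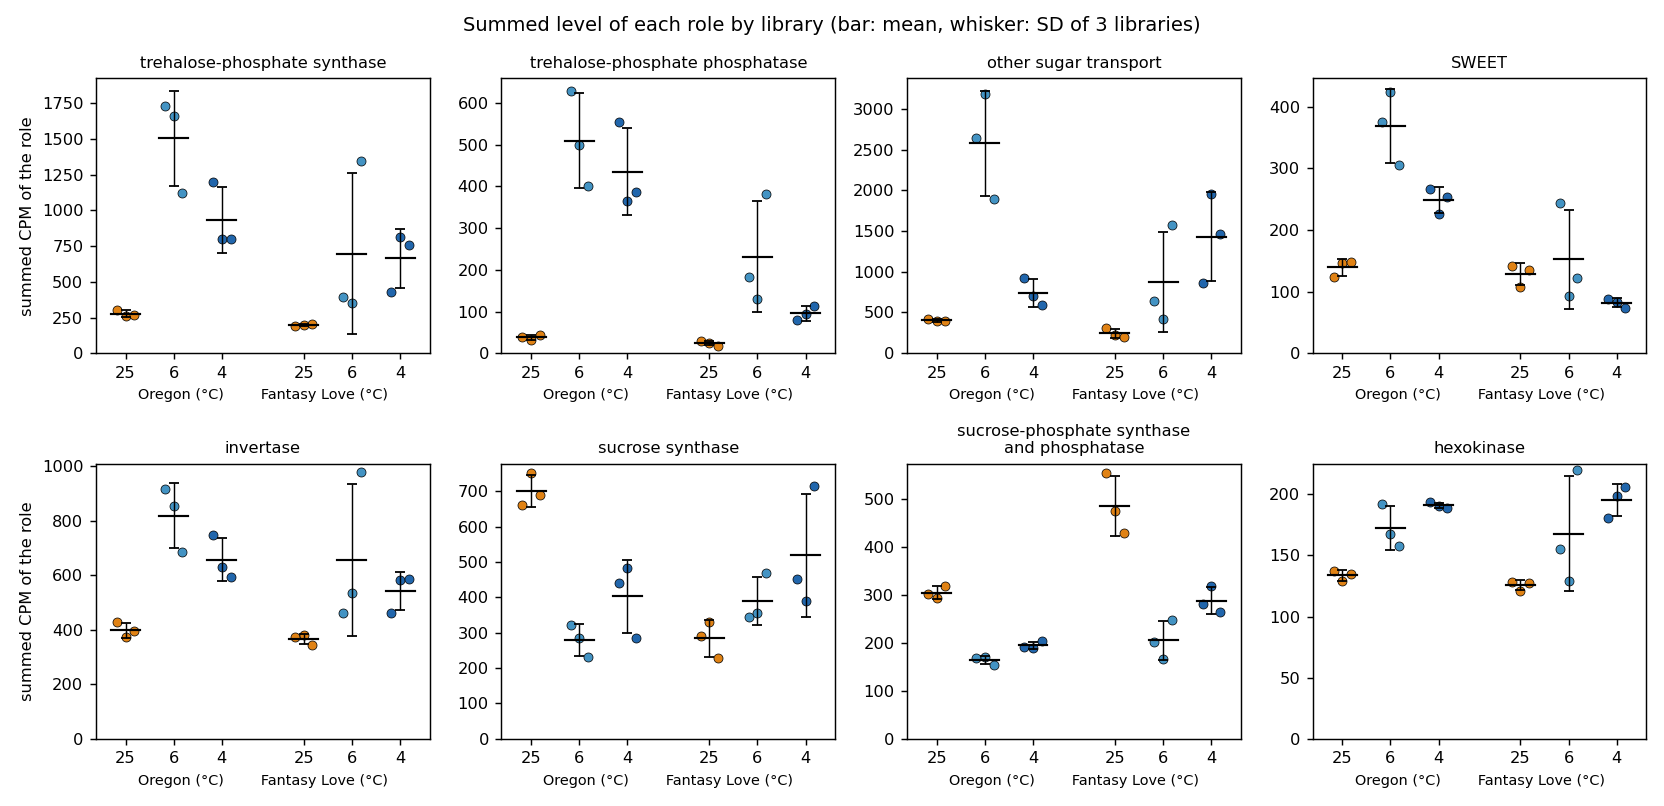
Summed level of the members of 8 roles in every library, in CPM, by cultivar and temperature. Points are single libraries, and bars give the mean and SD of 3. Trehalose-phosphate synthases and phosphatases are higher in the cold in both cultivars, while summed sucrose synthase is lower in the cold in Oregon (means of 701 CPM at 25 °C against 280 and 403 CPM) and not in Fantasy Love (284 CPM against 389 and 519 CPM).

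The rise was uneven over the roles. Trehalose-phosphate synthases went from a summed 278 ± 21.3 CPM to 1504 ± 334 at 6 °C and 932 ± 229 at 4 °C in Oregon, and from 199 ± 7.45 to 697 ± 563 and 665 ± 207 in Fantasy Love. The Fantasy Love sums at 6 °C were 393, 351 and 1347 CPM, so replicate 3 set most of that mean. The STP and related transporters went from 403 ± 19.2 to 2575 ± 647 and 741 ± 169 CPM in Oregon, and from 244 ± 54.3 to 876 ± 612 and 1429 ± 546 in Fantasy Love. That increase was carried by the 3 transcript groups named STP13, whose sum was 38.7, 2340 and 537 CPM in Oregon and 42.8, 610 and 1256 CPM in Fantasy Love at 25, 6 and 4 °C. The other 16 transporters of the role summed to 364, 235 and 203 CPM in Oregon and to 201, 266 and 173 CPM in Fantasy Love. Enzymes of sucrose synthesis moved the other way, from 304 ± 12.7 to 164 ± 8.71 and 195 ± 7.59 CPM in Oregon and from 485 ± 62.8 to 205 ± 40.8 and 288 ± 27.5 in Fantasy Love. Per transcript length, the STP and related transporters made up 19%, 52.2% and 25.8% of the members' TPM in Oregon at 25, 6 and 4 °C. In Fantasy Love their shares of TPM were 17.8%, 30.8% and 46.7%. Without STP13, the other 16 made up 16.2%, 2.79% and 5.03% of the members' TPM in Oregon and 14.4%, 6.71% and 4.02% in Fantasy Love.

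Trehalose-phosphate synthases were the role with the most members and the most that rose. Of the 26 with a test, Oregon had 19 up and 2 down at 6 °C and 20 up and 2 down at 4 °C. Fantasy Love had 20 up and 1 down at 6 °C, and 20 up and 2 down at 4 °C. The shares up were 73.1%, 76.9%, 76.9% and 76.9%, against 28.3%, 28.4%, 23.8% and 28.5% of all tested, in the same order. The median log2 changes of these synthases were 3.56, 3.45, 5.06 and 4.95. With the transcript groups that had no counts in one condition set at their bound, the first 2 medians were 3.37 and 3.26 and the other two were the same. Without the library that stood apart, 20 rose and 1 fell in Fantasy Love at 6 °C. Those that rose in all 4 comparisons carried the names TPS5, TPS7, TPS8, TPS9, TPS10 and TPS11, all of the second class.

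TPS9 (DN52582_c0_g5) was the highest of them in Oregon at 6 °C. Its libraries read 3.19, 2.60 and 2.21 CPM in Oregon at 25 °C, 274, 286 and 170 CPM at 6 °C, and 163, 136 and 115 CPM at 4 °C. In Fantasy Love it read 1.27, 1.47 and 0.702 CPM at 25 °C, 24.2, 13 and 273 CPM at 6 °C, and 34.1, 125 and 103 CPM at 4 °C. Every cold library lay above every 25 °C library of its cultivar, but replicate 3 of Fantasy Love at 6 °C was more than 10 times as high as the other two. The log2 changes were 6.51 ± 0.92 (SE, edgeR adjusted p = 1.45e-05) and 5.69 ± 0.89 (adjusted p = 4.09e-05) in Oregon at 6 °C and 4 °C. They were 6.48 ± 0.93 (adjusted p = 2.75e-05) and 6.23 ± 0.92 (adjusted p = 2.34e-05) in Fantasy Love, where the 6 °C value was 3.95 without replicate 3.

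A second TPS9 (DN36284_c0_g3) behaved alike by its means, at 3.08, 172 and 89.0 CPM in Oregon and 1.54, 81.4 and 78.6 CPM in Fantasy Love at 25, 6 and 4 °C, although its log2 rise of 5.72 in Fantasy Love at 6 °C was 3.64 without replicate 3 there. TPS7 (DN40797_c0_g1) went from 4.53 to 117 and 75.7 CPM in Oregon and from 0.681 to 66.0 and 53.2 CPM in Fantasy Love. Its log2 changes were 4.69 ± 0.51 (edgeR adjusted p = 9.7e-07) in Oregon and 6.57 ± 0.59 (adjusted p = 1.66e-07) in Fantasy Love at 6 °C. Another TPS7 (DN56054_c1_g2), which at 25 °C had 25.4 CPM in Oregon and 10.5 in Fantasy Love, rose by 1.88 to 3.49 on the log2 scale. TPS10 (DN57040_c3_g4) had no counts in the 6 libraries at 25 °C and was found in all 12 cold libraries. Taken against 3 counts over the control group, it was at least 78.1-fold and 115-fold higher in Oregon at 6 °C and 4 °C, and at least 61.3-fold and 65.5-fold higher in Fantasy Love, where the latter bound was 41.8-fold without replicate 3 at 4 °C. TPS9 (DN43152_c0_g4) had no counts in Fantasy Love at 25 °C and was at least 74.1-fold and 75.8-fold higher there at 6 °C and 4 °C, while in Oregon it went from 1.22 to 8.88 and 11.3 CPM. Its Fantasy Love libraries at 6 °C read 1.41, 2.92 and 8.20 CPM, and without replicate 3 the bound there was 36.7-fold.

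The 3 trehalose-phosphate synthases with the highest level at 25 °C, TPS1, TPS5 and TPS6, did not follow this pattern. TPS1 (DN46598_c1_g2), the catalytic form, had means of 39.7, 26.4 and 40.9 CPM in Oregon and 37.7, 37.8 and 24.1 CPM in Fantasy Love, and passed the test in no cold comparison. Another transcript group named TPS1 (DN44468_c2_g2) did fall in Fantasy Love at 4 °C. Its log2 change there was -2.46, and -3.55 without replicate 1 at 4 °C. TPS6 (DN53078_c0_g1) fell in Oregon from 71.9 to 28 and 25.7 CPM, by 1.36 ± 0.21 (edgeR adjusted p = 3.93e-05) and 1.48 ± 0.21 (adjusted p = 1.65e-05) on the log2 scale. In Fantasy Love it had 20.6, 16.7 and 15.1 CPM and did not pass.

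TPS5 (DN44799_c1_g5) moved in opposite directions in the 2 cultivars at 6 °C. In Oregon it read 49.5, 75.1 and 67.4 CPM at 25 °C, 171, 259 and 133 CPM at 6 °C, and 66.2, 33.6 and 35.9 CPM at 4 °C. In Fantasy Love it read 92.2, 96.6 and 105 CPM at 25 °C, 29.4, 16.7 and 28.6 CPM at 6 °C, and 19.1, 29.9 and 26.4 CPM at 4 °C. The 6 °C libraries of Oregon lay above all others and the cold libraries of Fantasy Love below all others. It rose by 1.55 ± 0.30 (edgeR adjusted p = 0.000381) in Oregon at 6 °C and fell by 1.98 ± 0.31 (adjusted p = 6.2e-05) in Fantasy Love, and the difference between the cultivars was -3.53 ± 0.43 (adjusted p = 0.000104).

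**Figure D2:**
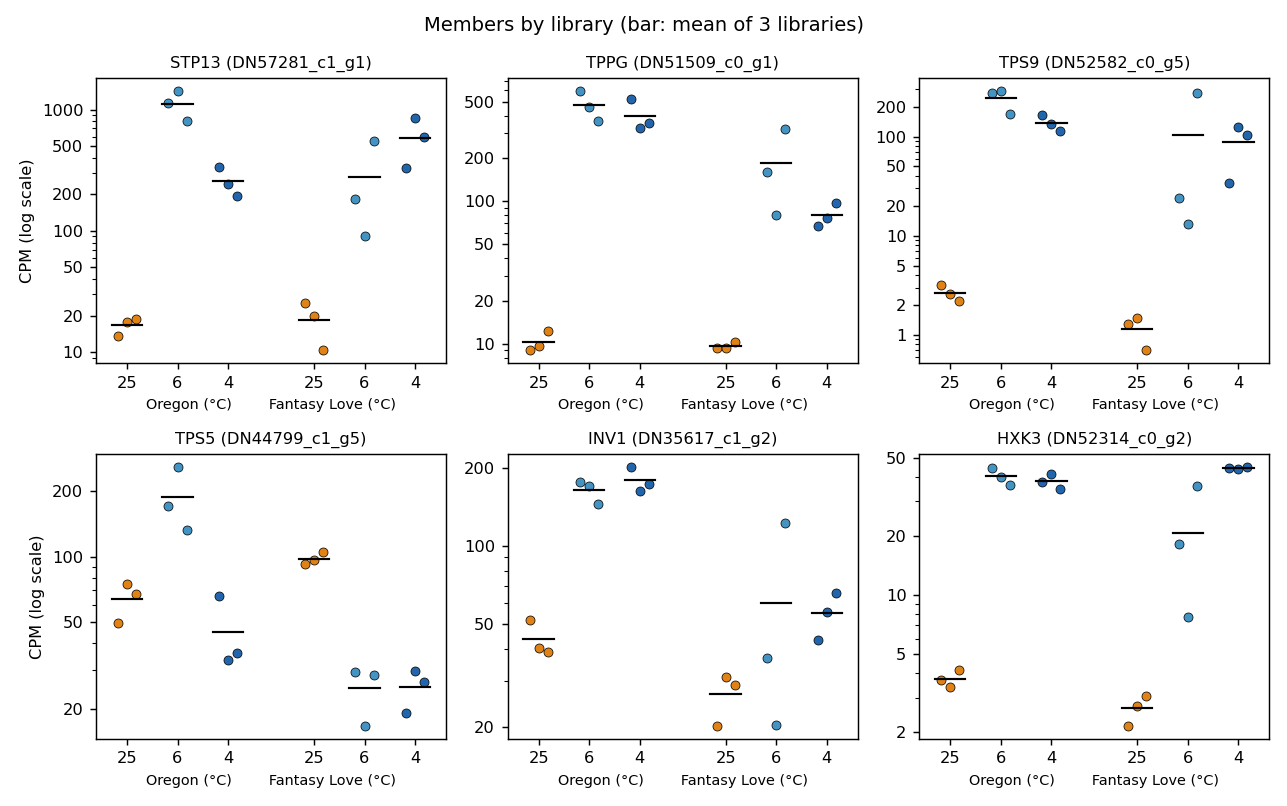
Level of 6 members in every library (log axis, CPM), by cultivar and temperature, with points for single libraries and bars for the mean of 3. STP13, TPPG, TPS9, INV1 and HXK3 have higher group means in the cold in both cultivars, and TPS5 is higher at 6 °C in Oregon (188 CPM against 64.0) and lower in Fantasy Love (24.9 CPM against 98.1).

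Trehalose-phosphate phosphatases remove the phosphate that the synthases' product carries. TPPG (DN51509_c0_g1) held most of their counts. It read 9.06, 9.61 and 12.4 CPM in Oregon at 25 °C, 591, 462 and 367 CPM at 6 °C, and 521, 327 and 352 CPM at 4 °C. In Fantasy Love it read 9.30, 9.34 and 10.3 CPM at 25 °C, 160, 79.7 and 320 CPM at 6 °C, and 67.7, 76.3 and 97.0 CPM at 4 °C. No cold library overlapped the 25 °C libraries, and at 4 °C all 3 Oregon libraries lay above all 3 of Fantasy Love. The log2 rises were 5.51 ± 0.42 (edgeR adjusted p = 1.89e-08) and 5.27 ± 0.41 (adjusted p = 3.03e-08) in Oregon. In Fantasy Love they were 4.27 ± 0.40 (adjusted p = 2.47e-07; 3.59 without replicate 3 at 6 °C) and 3.06 ± 0.38 (adjusted p = 3.09e-06), and the difference between the cultivars at 4 °C was -2.21 ± 0.50 (adjusted p = 0.00922).

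Among the other phosphatases, TPP2 (DN47999_c0_g1) rose from 2.96 to 25.9 and 23.6 CPM in Oregon, where its 25 °C libraries read 1.34, 1.03 and 6.51 CPM. Without replicate 3 of these controls the log2 rises of 3.13 and 3.00 were 4.40 and 4.28. It also rose from 4.17 to 23.0 CPM in Fantasy Love at 6 °C, a call that was lost without replicate 3 at 6 °C. Its 10.5 CPM in Fantasy Love at 4 °C did not pass. TPP6 (DN35435_c0_g2) fell in Oregon from 25.0 to 10.4 CPM at 6 °C, by 1.26 ± 0.39 (edgeR adjusted p = 0.0122), a call lost without replicate 3 at 6 °C. In Fantasy Love it read 13.2, 10.7 and 7.21 CPM at 25 °C and 9.56, 39.7 and 13.9 CPM at 6 °C, so its called rise of 1.02 ± 0.39 (adjusted p = 0.0421) rested on replicate 2, the library that stood apart, and was 0.15 without it. At 4 °C TPP6 was called lower than at 25 °C in both cultivars. Trehalase (DN50682_c2_g1), which splits trehalose into glucose, is no member but belongs beside them. It rose in all 4 comparisons, from 12.2 ± 2.38 CPM to 52.0 ± 6.79 and 32.2 ± 4.50 in Oregon and from 1.47 ± 0.804 to 6.86 ± 4.20 and 10.2 ± 4.53 in Fantasy Love.

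Enzymes of sucrose synthesis had more falls than rises in each cold comparison. Of 6, 1 rose and 3 fell in Oregon at 6 °C, 2 rose and 4 fell in Oregon at 4 °C, 4 fell in Fantasy Love at 6 °C, and 1 rose and 3 fell in Fantasy Love at 4 °C. The shares that fell were 50%, 66.7%, 66.7% and 50%, against 20.1%, 20.6%, 16.6% and 21.6% of all tested, in the same order. Sucrose phosphatase SPP2 (DN51226_c1_g1), which completes sucrose synthesis, read 173, 186 and 185 CPM in Oregon at 25 °C, 69.7, 67.3 and 65.4 CPM at 6 °C, and 74.8, 71.8 and 73.4 CPM at 4 °C. Fantasy Love read 162, 171 and 183 CPM, then 70.6, 74.5 and 67.2 CPM, then 67.7, 54.1 and 68.2 CPM. The cold libraries of both cultivars lay between 54.1 and 74.8 CPM, far below the 25 °C libraries. The fall was 1.42 ± 0.16 (edgeR adjusted p = 9.73e-07) in Oregon and 1.28 ± 0.16 (adjusted p = 4.58e-06) in Fantasy Love at 6 °C.

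The sucrose-phosphate synthases differed among themselves. SPS2 (DN51413_c1_g1) fell in all 4 comparisons, from 35.9 to 7.16 and 10.3 CPM in Oregon and from 97.2 to 20.1 and 32.2 CPM in Fantasy Love. A longer SPS2 (DN55600_c1_g1) went from 44.8 to 22.6 and 17.8 CPM in Oregon and from 120 to 42.0 and 60.1 CPM in Fantasy Love. SPS1 (DN52403_c0_g2) rose in Oregon, from 24.0 to 58.6 CPM at 6 °C (1.29 ± 0.25 on the log2 scale, edgeR adjusted p = 0.000316) and to 81.7 CPM at 4 °C (1.77 ± 0.25, adjusted p = 1.49e-05), while in Fantasy Love it had 39.8, 46.6 and 77.6 CPM and the change at 4 °C stayed under 2-fold (0.96, adjusted p = 0.00296). SPS4 (DN47748_c1_g3) rose at 4 °C, from 1.44 ± 0.181 to 5.52 ± 0.696 CPM in Oregon and from 7.19 ± 4.24 to 37.7 ± 21 CPM in Fantasy Love (2.39 ± 0.57, adjusted p = 0.00179, and 1.78 without replicate 2 at 4 °C). The transcript groups DN55600_c0_g2 and DN55600_c1_g1 belong to 1 assembly component and carry different names, SPS1 and SPS2, so their reads may be split between them. This other SPS1 group (DN55600_c0_g2) fell in Oregon at 6 °C, by 1.89 (edgeR adjusted p = 5.73e-05), unlike DN52403_c0_g2. Both groups of the component fell in Oregon at 4 °C and in Fantasy Love at 6 °C, and 1 of them in Fantasy Love at 4 °C.

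Sucrose synthases, which split sucrose to UDP-glucose and fructose, responded differently in the 2 cultivars. Of 10 with a test, 4 fell in Oregon at 6 °C and 2 at 4 °C, while in Fantasy Love 2 rose and 5 fell at 6 °C, and 2 rose and 1 fell at 4 °C. The shares that fell were 40%, 20%, 50% and 10%, against 20.1%, 20.6%, 16.6% and 21.6% of all tested, Oregon first, 6 °C before 4 °C. In Fantasy Love 20% rose at each temperature, against 23.8% and 28.5%. The test of the difference between the cultivars passed for 3 of the 10 sucrose synthases at 6 °C and 2 at 4 °C. A pair of transcript groups of 1 component, both named sucrose synthase 2, went different ways. The first (DN54386_c0_g1) read 90.7, 112 and 116 CPM in Oregon at 25 °C, 144, 137 and 87.3 CPM at 6 °C, and 138, 162 and 85.8 CPM at 4 °C, with overlapping groups. In Fantasy Love it read 39.3, 86.5 and 37.0 CPM, then 209, 156 and 217 CPM, then 275, 221 and 478 CPM. The cold libraries of Fantasy Love lay above its 25 °C libraries, with rises of 1.84 ± 0.35 (edgeR adjusted p = 0.000406) at 6 °C and 2.58 ± 0.36 (adjusted p = 1.2e-05) at 4 °C.

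The second (DN54386_c0_g2) read 261, 315 and 271 CPM in Oregon at 25 °C, 32.4, 23.3 and 36.0 CPM at 6 °C, and 128, 130 and 42.3 CPM at 4 °C. In Fantasy Love it read 43.2, 57.8 and 16.8 CPM, then 21, 91.1 and 106 CPM, then 15.1, 15.0 and 41.0 CPM. Oregon at 25 °C stood above every other library, and the Fantasy Love groups overlapped. It fell by 3.21 ± 0.58 (edgeR adjusted p = 0.000189) in Oregon at 6 °C, and DN40119_c0_g1, of the same name, fell by 3.07 ± 0.47 (adjusted p = 3.49e-05), from 137 to 16.4 CPM. SUS4 (DN53023_c0_g1) fell in both cultivars at 6 °C, from 62.4 to 22.5 CPM in Oregon (-1.47 ± 0.24, adjusted p = 7.48e-05) and from 85.7 to 22.6 CPM in Fantasy Love (-1.92 ± 0.25, adjusted p = 7.82e-06).

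Invertases split sucrose to glucose and fructose in the cell wall, the vacuole, the cytosol or organelles. Of 16 with a test, Oregon had 6 up and 2 down at 6 °C and 4 up and 3 down at 4 °C. Fantasy Love had 5 up and 1 down at 6 °C, and 4 up and 2 down at 4 °C. The shares up were 37.5%, 25%, 31.25% and 25%, against 28.3%, 28.4%, 23.8% and 28.5% of all tested, Oregon first, 6 °C before 4 °C. The shares down were 12.5%, 18.75%, 6.25% and 12.5%, against 20.1%, 20.6%, 16.6% and 21.6%. The cell wall (insoluble) invertase INV1 (DN35617_c1_g2) read 51.8, 40.1 and 38.8 CPM in Oregon at 25 °C, 176, 171 and 145 CPM at 6 °C, and 201, 162 and 173 CPM at 4 °C. In Fantasy Love it read 20.1, 31.1 and 29 CPM, then 36.7, 20.3 and 122 CPM, then 43.1, 55.4 and 65.5 CPM. Oregon's cold libraries stood clear of its controls, and in Fantasy Love replicate 2 at 6 °C lay within the range of the controls. The rise was 1.91 ± 0.43 (edgeR adjusted p = 0.00114) and 2.04 ± 0.43 (adjusted p = 0.000695) in Oregon. In Fantasy Love it was 1.16 (adjusted p = 0.0312) at 6 °C, but 0.05 without replicate 3, and that call was also lost without any 1 of the 3 libraries at 25 °C. At 4 °C it was 1.03 (adjusted p = 0.044), a call that was lost without any 1 of 17 libraries, with values of 0.78 to 1.08.

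CIN3 (DN53881_c0_g2), also insoluble, had means of 29.2, 101 and 98.4 CPM in Oregon and 19.4, 42.6 and 43.4 CPM in Fantasy Love, and rose in all 4 comparisons, although in Fantasy Love at 6 °C the rise of 1.13 (edgeR adjusted p = 0.0176) was 0.24 without replicate 3. The soluble, vacuolar type INV*DC4 (DN57012_c3_g1) was the highest invertase, at 88.2, 218 and 171 CPM in Oregon and 117, 279 and 180 CPM in Fantasy Love. It rose at 6 °C by 1.30 ± 0.34 (adjusted p = 0.0041) in Oregon and by 1.25 (adjusted p = 0.00659) in Fantasy Love, the latter 0.56 without replicate 3. The mitochondrial neutral invertase NIN1 (DN54542_c0_g2) rose at 6 °C from 53.1 to 155 CPM in Oregon (1.55 ± 0.29, adjusted p = 0.000283) and from 22.5 to 70.0 CPM in Fantasy Love (1.64 ± 0.30, adjusted p = 0.000246). At 4 °C it was at 57.6 CPM in Oregon, with no call, and at 54.6 CPM in Fantasy Love. The chloroplast neutral invertase NIN3 (DN52998_c0_g1), at 69.1 to 129 CPM by group mean, passed in no cold comparison, while a shorter NIN3 (DN38999_c0_g1) fell from 15.2 to 6.25 and 6.39 CPM in Oregon and from 15.8 to 7.64 CPM in Fantasy Love at 4 °C.

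Hexokinases phosphorylate glucose and also act as glucose sensors in plants. Of 8 with a test, 3 rose and 1 fell in Oregon at 6 °C, 3 rose in Oregon at 4 °C, and 2 rose and 1 fell in Fantasy Love at each cold temperature. The shares that rose were 37.5%, 37.5%, 25% and 25%, against 28.3%, 28.4%, 23.8% and 28.5% of all tested, Oregon first, 6 °C before 4 °C. The shares that fell were 12.5%, 0%, 12.5% and 12.5%, against 20.1%, 20.6%, 16.6% and 21.6%. HXK3 (DN52314_c0_g2) read 3.68, 3.38 and 4.16 CPM in Oregon at 25 °C, 44.2, 39.9 and 36.3 CPM at 6 °C, and 37.5, 41.4 and 34.6 CPM at 4 °C. In Fantasy Love it read 2.16, 2.72 and 3.06 CPM, then 18.2, 7.73 and 35.9 CPM, then 44.1, 44.0 and 44.8 CPM. Every cold library lay above every 25 °C library, and replicates of Fantasy Love at 6 °C were the widest apart. The rises were 3.42 ± 0.38 (edgeR adjusted p = 1.03e-06) in Oregon at 6 °C and 4.06 ± 0.39 (adjusted p = 1.8e-07) in Fantasy Love at 4 °C. A second HXK3 (DN54826_c0_g3) went from 6.25 to 35.1 and 39.2 CPM in Oregon and from 2.40 to 26.3 and 51.0 CPM in Fantasy Love. The chloroplast HXK2 (DN52322_c0_g1) fell from 30.9 to 8.70 CPM in Oregon at 6 °C, was at 20.6 CPM with no call at 4 °C, and fell from 47.0 to 19 and 9.69 CPM in Fantasy Love.

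Fructokinases phosphorylate fructose. FRK2 (DN35212_c0_g3) had the highest level of them and fell in Fantasy Love at 4 °C. It read 150, 174 and 150 CPM in Oregon at 25 °C, 149, 137 and 135 CPM at 6 °C, and 160, 118 and 94.0 CPM at 4 °C. In Fantasy Love it read 85.3, 158 and 129 CPM, then 90.4, 194 and 172 CPM, then 26.6, 31.6 and 47.8 CPM. The 3 Fantasy Love libraries at 4 °C lay below the other 15, with a fall of 1.81 ± 0.30 (edgeR adjusted p = 6.9e-05) against 25 °C. The chloroplast fructokinase At1g66430 (DN52021_c0_g1) fell in all 4 comparisons, from 42.0 to 14.2 and 18.4 CPM in Oregon and from 48.0 to 9.16 and 10.2 CPM in Fantasy Love. Fructokinase-4 (At3g59480, DN46075_c0_g1) rose in Fantasy Love from 2.22 to 14.9 and 15.2 CPM, and FRK2 (DN46075_c0_g2) of the same component from 11.1 to 64.9 and 51.3 CPM. The FRK2 rise there at 6 °C, 2.54 on the log2 scale, was 1.94 without the library that stood apart. In Oregon both also rose at 6 °C, fructokinase-4 by 1.11 (edgeR adjusted p = 0.00926) and this FRK2 by 1.07 (adjusted p = 0.021). Both Oregon calls were lost without replicate 1 at 25 °C or replicate 2 at 6 °C, and that of FRK2 also without replicate 2 or 3 at 25 °C. Neither passed in Oregon at 4 °C.

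The fructokinase-like proteins FLN1 and FLN2 are parts of the chloroplast transcription machinery and not sugar kinases by function. FLN2 (DN44289_c0_g1) fell in all 4 comparisons, from 22.9 to 6.27 and 7.73 CPM in Oregon and from 50.9 to 11.9 and 11 CPM in Fantasy Love. FLN1 (DN51503_c0_g1) fell except in Oregon at 4 °C, where it was at 15.2 CPM against 23.9 at 25 °C. Among the phosphofructokinases, which commit hexose phosphate to glycolysis, PFK3 (DN53926_c0_g2) read 23.1, 25.7 and 29.5 CPM in Oregon at 25 °C, 147, 125 and 115 CPM at 6 °C, and 151, 154 and 130 CPM at 4 °C. Fantasy Love read 18.4, 17.8 and 16.5 CPM, then 105, 99.7 and 139 CPM, then 126, 123 and 130 CPM. No cold library came near a 25 °C library in either cultivar, and the rises were 2.30 ± 0.18 (edgeR adjusted p = 3.26e-08), 2.47 (adjusted p = 1.81e-08), 2.70 (adjusted p = 1.3e-08) and 2.85 (adjusted p = 3.16e-09), Oregon first and 6 °C before 4 °C. A second PFK3 (DN49670_c0_g1) rose in Oregon from 2.20 to 20.0 and 13.5 CPM, while Fantasy Love had 18.7 CPM at 25 °C and 33.3 and 34.3 CPM in the cold, a change under 2-fold.

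**Figure D3:**
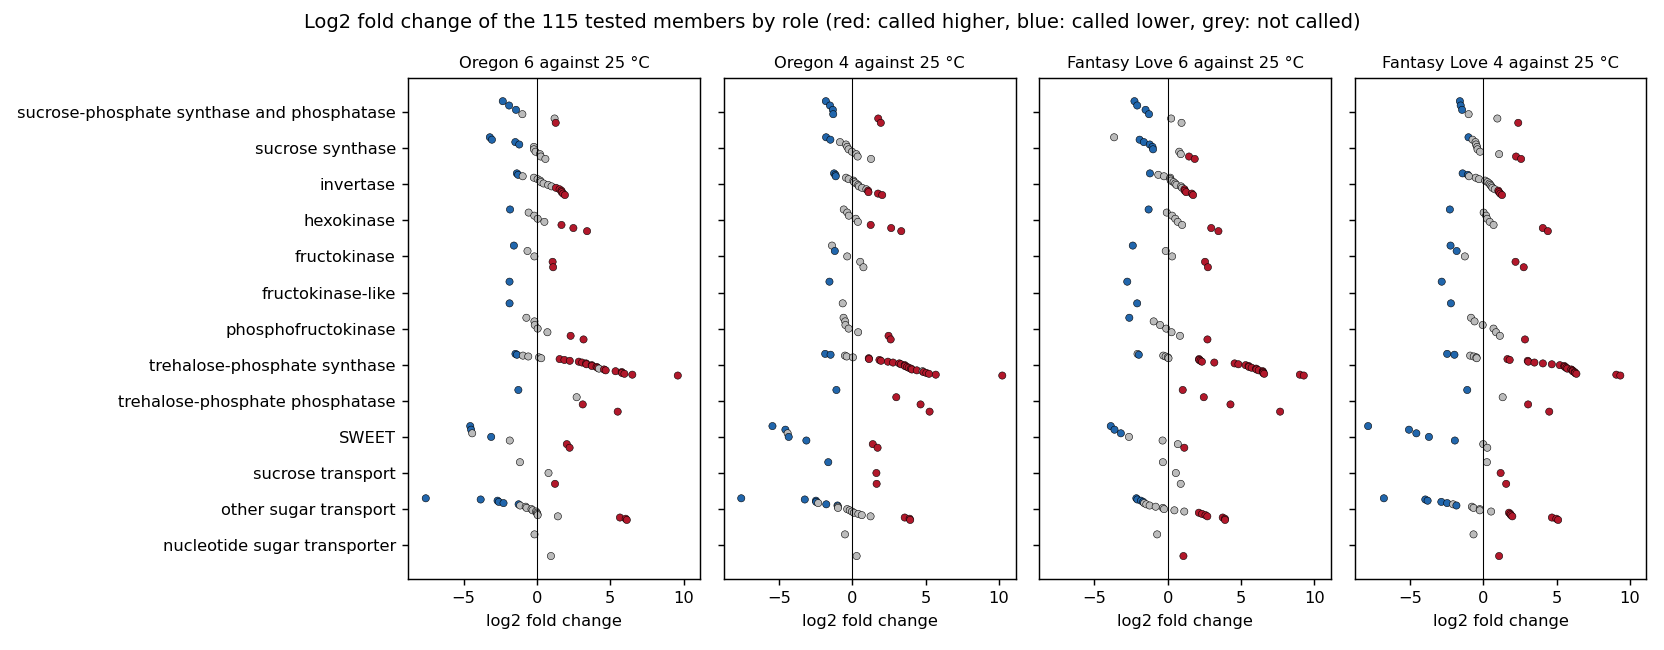
Fitted log2 fold change of the 115 tested members against 25 °C, by role, in the 4 cold comparisons, with red for a called rise, blue for a called fall and grey for no call. Trehalose-phosphate synthases lie mostly above 0 and enzymes of sucrose synthesis mostly below. Points for members with no counts in a group (4 or 5 in each comparison) depend on the prior count of the fit and are not bounds.

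Among the transporters, the largest called rises were those of STP13, a high-affinity hexose importer in Arabidopsis. Its name was given to 3 transcript groups, which may be pieces of 1 gene. The longest (DN57281_c1_g1) read 13.6, 17.8 and 18.9 CPM in Oregon at 25 °C, 1130, 1416 and 803 CPM at 6 °C, and 338, 245 and 194 CPM at 4 °C. In Fantasy Love it read 25.6, 19.8 and 10.4 CPM, then 183, 91.5 and 555 CPM, then 328, 849 and 591 CPM. In both cultivars the cold libraries did not overlap the controls, and Oregon was highest at 6 °C. The rises were 6.06 ± 0.61 (edgeR adjusted p = 3.69e-07) and 3.95 ± 0.55 (adjusted p = 1.3e-05) in Oregon, and 3.90 ± 0.55 (adjusted p = 2.11e-05) and 4.98 ± 0.58 (adjusted p = 1.58e-06) in Fantasy Love. Without replicate 3 of Fantasy Love at 6 °C the rise there was 2.84. Its mean TPM was 5.15, 440 and 108 in Oregon and 5.92, 114 and 321 in Fantasy Love. The other two groups of that name (DN54680_c1_g3 and DN48171_c1_g3) rose in all 4 comparisons by 3.57 to 6.13 on the log2 scale, and in Fantasy Love at 6 °C their rises of 3.75 and 3.91 were 2.70 and 2.82 without replicate 3.

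Not all hexose transporters followed. Of the 19 STP and ERD6-like transporters, all tested, Oregon had 3 up and 6 down at 6 °C and the same numbers at 4 °C. Fantasy Love had 7 up and 4 down at 6 °C and 7 up and 6 down at 4 °C. The shares up were 15.8%, 15.8%, 36.8% and 36.8%, against 28.3%, 28.4%, 23.8% and 28.5% of all tested, Oregon first, 6 °C before 4 °C. The shares down were 31.6%, 31.6%, 21.1% and 31.6%, against 20.1%, 20.6%, 16.6% and 21.6%. At both temperatures the Fantasy Love rises included 3 groups named STP13 and 3 named STP14. Groups of these 2 names shared the components DN48171 and DN54680, so their reads may be split between them. STP14 (DN54680_c1_g1), a galactose importer in Arabidopsis, read 50.8, 38.9 and 40.9 CPM in Oregon at 25 °C, 44.5, 48.8 and 40.3 CPM at 6 °C, and 52.7, 38.5 and 36.9 CPM at 4 °C. In Fantasy Love it read 4.98, 4.34 and 4.53 CPM, then 25.5, 21.2 and 43.1 CPM, then 11, 20.6 and 23.1 CPM. Fantasy Love at 25 °C was the lowest group, and the Oregon libraries lay between 36.9 and 52.7 CPM at every temperature. The rise in Fantasy Love was 2.70 ± 0.30 (edgeR adjusted p = 1.76e-06) at 6 °C and 1.98 ± 0.29 (adjusted p = 2.33e-05) at 4 °C, against 0.04 and -0.03 in Oregon.

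STP7 (DN43945_c1_g3) fell in all 4 comparisons, from 8.44 to 1.74 and 1.53 CPM in Oregon and from 6.18 to 1.46 and 0.440 CPM in Fantasy Love. The proton-coupled hexose importer STP1 (DN41971_c0_g3) had 160, 72.6 and 46.8 CPM in Oregon and 24.4, 106 and 35.4 CPM in Fantasy Love by mean, with Fantasy Love controls of 61.3, 9.07 and 2.81 CPM. Its fall of 1.78 (edgeR adjusted p = 0.0317) in Oregon at 4 °C was lost without replicate 1 or 2 at 25 °C or 2 or 3 at 4 °C. Its rise of 2.12 (adjusted p = 0.0167) in Fantasy Love at 6 °C was lost without replicate 2 at 25 °C or 3 at 6 °C, and was 4.14 without replicate 1 at 25 °C. ERD6-like 16 (DN55818_c1_g2) fell in Fantasy Love, where it read 54.0, 55.3 and 57.4 CPM at 25 °C, 24.6, 13.1 and 14.3 CPM at 6 °C, and 18.2, 14.8 and 13.9 CPM at 4 °C. In Oregon it read 13, 14.0 and 11.7 CPM, then 7.48, 6.62 and 8.63 CPM, then 8.87, 12.6 and 12.7 CPM, with no call. The falls in Fantasy Love were 1.68 ± 0.24 (edgeR adjusted p = 3.03e-05) and 1.83 ± 0.25 (adjusted p = 7.9e-06). The ERD6-like 6 transporter At1g75220 (DN43419_c0_g1), at 40.6 to 58.6 CPM by group mean, passed in no cold comparison. The transporter named for sqv-7 of Caenorhabditis elegans (DN42879_c0_g1), which carries UDP-sugars into the Golgi there, rose in Fantasy Love from 19 to 39.8 CPM at 6 °C and 40.2 CPM at 4 °C, calls that were both lost without replicate 2 at 25 °C. The 6 °C call was also lost without the library that stood apart, where the log2 change went from 1.07 to 0.99, and the 4 °C call without replicate 1 at 4 °C, replicate 3 at 6 °C or replicate 3 of Oregon at 6 °C.

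Sucrose transporters load sucrose into the phloem or release it from the vacuole. SUT4 (DN51280_c1_g2) read 13.7, 18 and 18.9 CPM in Oregon at 25 °C, 47.6, 39.0 and 32.7 CPM at 6 °C, and 57.8, 47.1 and 54.9 CPM at 4 °C. Fantasy Love read 14.0, 14.6 and 8.49 CPM, then 18.3, 10.6 and 39.3 CPM, then 30.0, 39.0 and 40.6 CPM. Only Fantasy Love at 6 °C overlapped its controls, and it did not pass there (0.88 on the log2 scale). The rises were 1.24 ± 0.34 (edgeR adjusted p = 0.00597) and 1.66 ± 0.35 (adjusted p = 0.000692) in Oregon and 1.56 ± 0.35 (adjusted p = 0.00108) in Fantasy Love at 4 °C. A shorter SUT4 (DN36394_c1_g3) rose at 4 °C, from 6.85 to 21.4 CPM in Oregon and from 7.12 to 16.2 CPM in Fantasy Love, the latter lost without replicate 3 at 25 °C. SUT2 (DN38415_c0_g2) fell in Oregon at 4 °C, from 3.03 to 0.963 CPM (edgeR adjusted p = 0.009), a call lost without replicate 1 of Oregon at 25 °C.

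SWEET proteins let sugars pass membranes down their gradient, and the SWEET2 and SWEET16 types of Arabidopsis sit in the vacuolar membrane. SWEET2A (DN50007_c0_g1) read 36.4, 50.4 and 42.0 CPM in Oregon at 25 °C, 177, 211 and 143 CPM at 6 °C, and 127, 104 and 108 CPM at 4 °C. Fantasy Love read 37.1, 29.5 and 39.2 CPM, then 129, 35.4 and 66.0 CPM, then 46.4, 41.3 and 40.2 CPM. Oregon rose by 2.04 ± 0.32 (edgeR adjusted p = 4.85e-05) and 1.40 ± 0.32 (adjusted p = 0.00133). The Fantasy Love rise of 1.13 ± 0.32 (adjusted p = 0.00769) at 6 °C was 0.55 without replicate 1 at 6 °C and was also lost without replicate 2 at 25 °C. The other SWEET2A (DN48493_c0_g1) went from 39.8 to 187 and 131 CPM in Oregon and was at 29.4, 47.3 and 29.4 CPM in Fantasy Love.

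Other SWEET members moved the other way. SWEET16 (DN46163_c0_g1) read 22.7, 25.7 and 26.8 CPM in Oregon at 25 °C and 0.340 to 1.62 CPM in its 6 cold libraries. In Fantasy Love it read 37.6, 19.7 and 13.8 CPM at 25 °C and 0.427 to 4.22 CPM in the cold. It fell by 4.54 ± 0.71 (adjusted p = 4.31e-05) in Oregon and 3.63 ± 0.68 (adjusted p = 0.000324) in Fantasy Love at 6 °C, where the log2 change was -4.95 without the library that stood apart. SWEET1A (DN43180_c2_g2) read 31.9, 24.7 and 24.2 CPM in Oregon at 25 °C, 5.41, 3.00 and 0.954 CPM at 6 °C, and 1.33, 2.95 and 4.82 CPM at 4 °C. In Fantasy Love it read 26.7, 30.7 and 38.4 CPM, then 31.2, 27.4 and 16.3 CPM, then 4.15, 7.47 and 13.4 CPM. Fantasy Love at 6 °C was the cold group that did not pass, with a log2 change of -0.36, and the test of the difference between cultivars gave 2.76 ± 0.71 (adjusted p = 0.0209), a call lost without replicate 1 of Oregon at 25 °C or replicate 2 or 3 of Oregon at 6 °C.

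The last cooling step, from 6 °C to 4 °C, moved few members. In Oregon 2 rose and 5 fell, 1.74% and 4.35% of those tested, against 0.91% and 1.32% of all tested. In Fantasy Love 1 rose and 6 fell, 0.87% and 5.22%, against 1.83% and 7.19%. STP13 (DN57281_c1_g1) fell by 2.11 ± 0.51 (edgeR adjusted p = 0.0308) in Oregon, a call lost without any 1 of 5 of its 6 cold libraries and with the replicate block (adjusted p = 0.0535), and TPS5 (DN44799_c1_g5) fell by 2.05 ± 0.31 (adjusted p = 0.00185) and remained called without any 1 library. In Fantasy Love FRK2 (DN35212_c0_g3) fell by 2.11 ± 0.30 (adjusted p = 0.000249), and TPP6 (DN35435_c0_g2) by 2.11 ± 0.41 (adjusted p = 0.00273), with a log2 change of -1.31 without the library that stood apart. TPPG (DN51509_c0_g1) fell there by 1.22 ± 0.35 (adjusted p = 0.0313), a call lost without replicate 3 at 6 °C or replicate 1 or 2 at 4 °C. Without the library that stood apart, no member rose and 11 fell in Fantasy Love. TPS9 (DN52582_c0_g5) had a log2 change of -0.24 with no call, which became 2.18 (adjusted p = 0.00231) without replicate 3 at 6 °C.

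The cultivars also differed at 25 °C. There 11 members were higher and 24 lower in Fantasy Love than in Oregon. These were 9.57% and 20.9% of those tested, against 8.35% and 7.05% of all tested. At 6 °C 11 were higher and 17 lower, 9.57% and 14.8%, against 12.1% and 11.3%. At 4 °C 14 were higher and 20 lower, 12.2% and 17.4%, against 8.95% and 10.2%. Among the lower members at 25 °C were 13 of the 26 trehalose-phosphate synthases, including TPS7 (DN40797_c0_g1), 2.71 ± 0.54 lower (edgeR adjusted p = 0.00179), and TPS6 (DN53078_c0_g1), 1.80 ± 0.21 lower (adjusted p = 1.38e-05). STP14 (DN54680_c1_g1) was 3.23 ± 0.31 lower (adjusted p = 1.13e-06), and the sucrose synthase 2 group DN54386_c0_g2 was 2.84 ± 0.57 lower (adjusted p = 0.00182). Of the 5 sucrose-phosphate synthases, 4 were higher in Fantasy Love at 25 °C, 3 at 6 °C and 4 at 4 °C, with SPS2 (DN51413_c1_g1) 1.44, 1.49 and 1.65 higher on the log2 scale. HXK1 (DN33523_c0_g1) was 0.669 ± 0.347 CPM in Oregon and 8.43 ± 1.27 in Fantasy Love at 25 °C, a log2 difference of 3.65 ± 0.45 (adjusted p = 2.22e-05) that was 2.95 and 3.10 in the cold. HXK1 (DN33523_c0_g8) of the same component went the other way at 25 °C, by -0.98 (edgeR adjusted p = 0.00616), under 2-fold. The third group of that component had -0.13 with no call, and reads may be split between the 3. Summed hexokinase at 25 °C was 134 CPM in Oregon and 126 CPM in Fantasy Love.

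**Figure D4:**
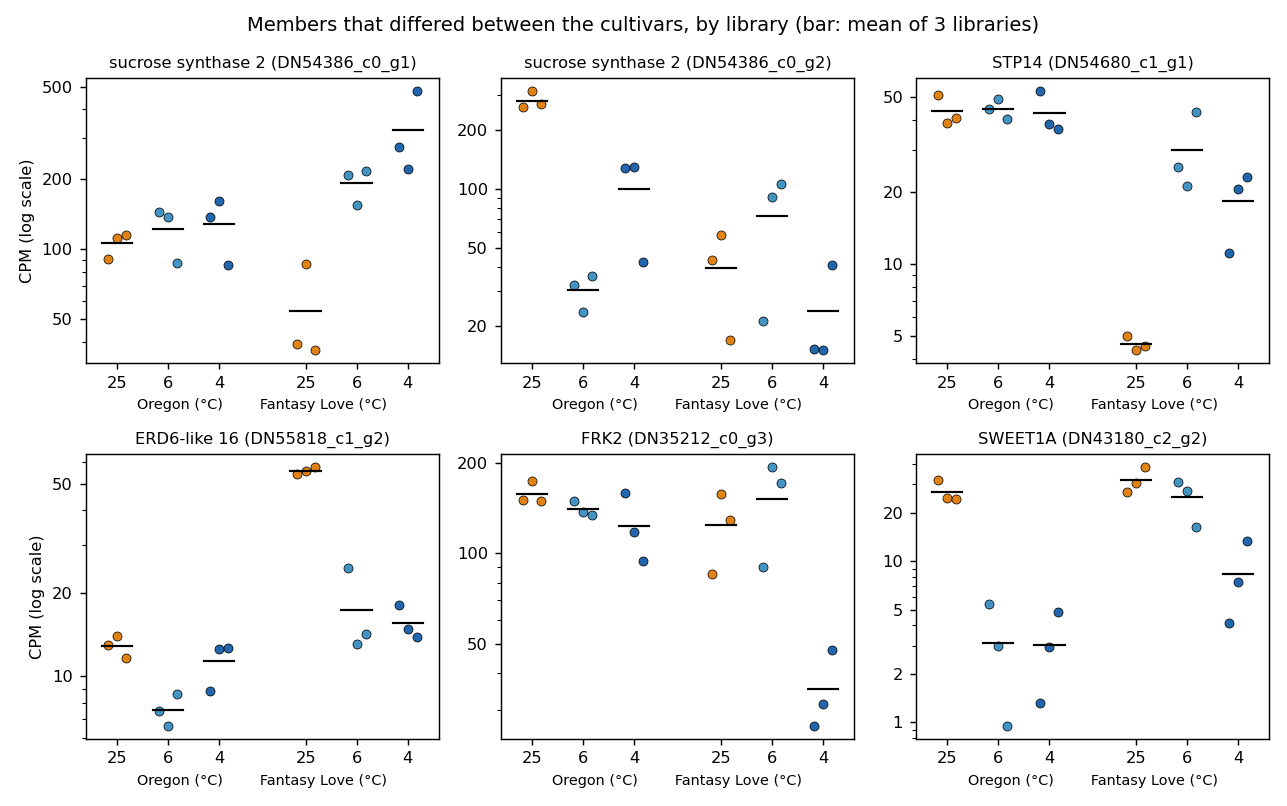
Level of 6 members in every library (log axis, CPM), by cultivar and temperature, with points for libraries and bars for the mean of 3. STP14 is lowest in Fantasy Love at 25 °C, and the 2 sucrose synthase 2 groups differ in their order of levels between the cultivars.

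The responses overlapped in part. At 6 °C 33 members rose in both cultivars, which was 80.5% of those that rose in Oregon and 73.3% of those that rose in Fantasy Love, against 56.4% and 67.1% over all transcript groups tested. Of those that fell, 13 did so in both, which was 52% and 56.5%, against 56.5% and 68.5%. At 4 °C 34 rose in both, 82.9% and 77.3%, against 66.2% and 66.0%, and 16 fell in both, 64% of each, against 69.8% and 66.6%. The difference between the responses, tested directly, was higher in Fantasy Love for 18 members and lower for 2 at 6 °C. These were 15.7% and 1.74% of those tested, against 5.06% and 3.97% of all tested. At 4 °C the difference was higher for 12 and lower for 8, 10.4% and 6.96%, against 3.86% and 5.04%. Trehalose-phosphate synthases gave 7 of the higher differences at each temperature, though not the same 7. Each of them had a lower mean at 25 °C in Fantasy Love than in Oregon. The 25 °C means are part of the difference itself, so these 2 observations are not independent. STP14 (DN54680_c1_g1) differed by 2.66 ± 0.40 (edgeR adjusted p = 0.000615) at 6 °C and 2.01 ± 0.40 (adjusted p = 0.00383) at 4 °C. The sucrose synthase 2 groups DN54386_c0_g2 and DN40119_c0_g1 differed by 4.09 ± 0.79 (adjusted p = 0.00353) and 3.84 ± 0.64 (adjusted p = 0.00124) at 6 °C, and DN54386_c0_g1 by 2.31 ± 0.49 (adjusted p = 0.00567) at 4 °C. The PFK3 group DN49670_c0_g1 differed by -2.35 ± 0.31 (adjusted p = 0.000219) at 6 °C.

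**Figure D5:**
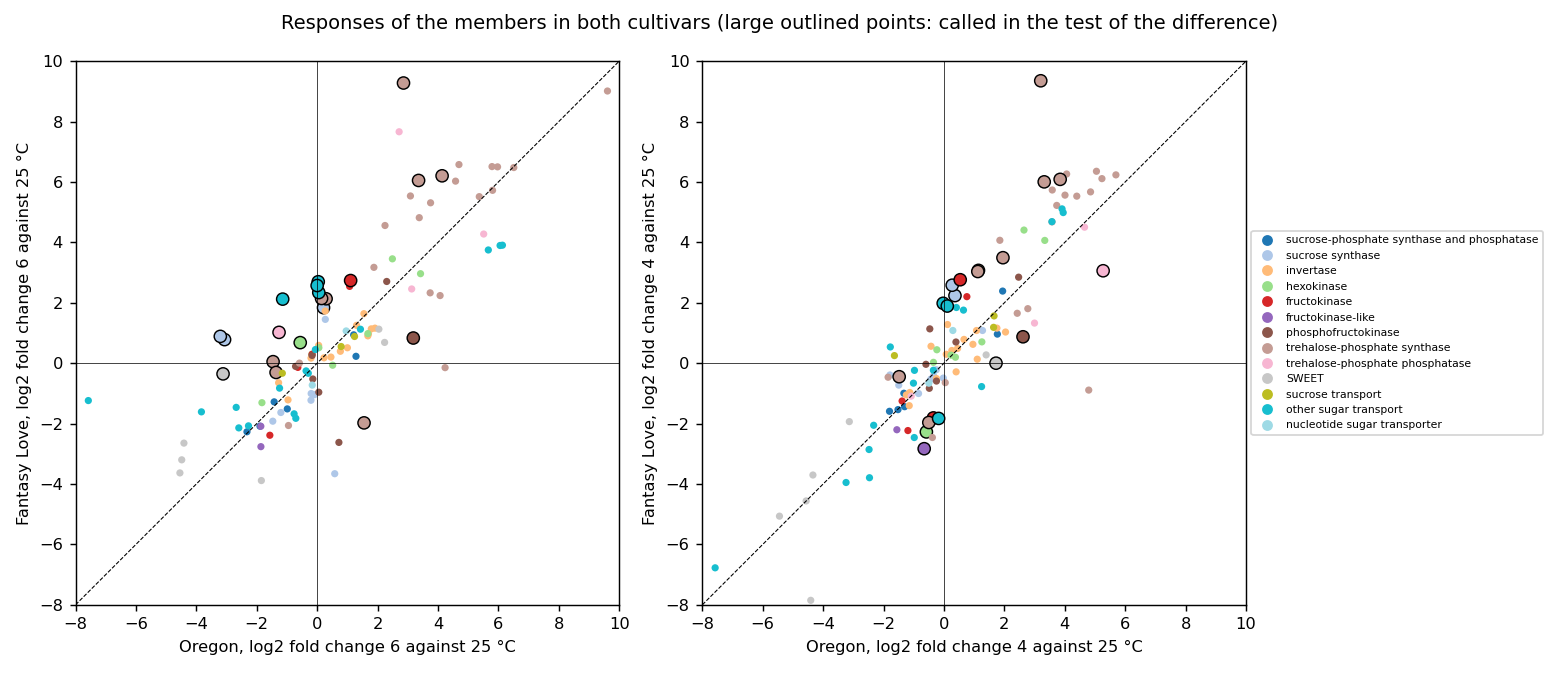
Fitted log2 fold change against 25 °C in Fantasy Love plotted over that in Oregon for the 115 tested members, at 6 °C and 4 °C. The dashed line marks equal change, and outlined points passed the test of the difference between the cultivars (20 at each temperature). Points of members with no counts in a group depend on the prior count of the fit.

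Genes around these roles were followed through a list of 150 transcript groups named for starch, raffinose sugars, glycolysis, hexose phosphates, sugar-sensing SnRK kinases and other sugar carriers, of which 139 were tested. In Oregon 29 rose and 42 fell at 6 °C and 33 rose and 39 fell at 4 °C, and in Fantasy Love 23 rose and 50 fell at 6 °C and 20 rose and 48 fell at 4 °C. Over all transcript groups tested, the shares that rose and fell were 28.3% and 20.1%, then 28.4% and 20.6%, in Oregon, and 23.8% and 16.6%, then 28.5% and 21.6%, in Fantasy Love, 6 °C before 4 °C. Of 14 raffinose family groups, 9 rose and 1 fell in Oregon at 6 °C and 10 rose and 2 fell at 4 °C, while in Fantasy Love 7 rose and 3 fell, then 7 rose and 2 fell. Of 57 starch groups, 11 rose and 21 fell and then 10 rose and 17 fell in Oregon, and 10 rose and 22 fell and then 9 rose and 21 fell in Fantasy Love. Of 19 other carriers, 4 rose and 7 fell and then 3 rose and 8 fell in Oregon, while in Fantasy Love 11 fell at 6 °C, and 1 rose and 9 fell at 4 °C.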

How the data were processed

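Leaf RNA of 18 libraries was sequenced, and the authors deposited 1 table of transcript groups. Its estimated counts and its length-scaled levels (TPM) were made by the authors, per the file headers, which also give a length in bases. Reads were trimmed with cutadapt 1.9, per the submitters' processing notes, and identifiers follow the naming of the Trinity assembler. The assembly settings and the quantification tool were not given in the sources used here. Estimated counts as deposited were rounded to whole numbers, since 4.21% of them had decimals. That the second set of values is TPM was judged from its sums of at most 994410 per library.

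The quasi-likelihood test of edgeR 4.0.16 in R 4.3.3 was fitted once to the 6 group means over 18 libraries, with trimmed mean of M values scaling and a filter of 10 counts in enough libraries and 15 in total. Adjusted p-values are Benjamini-Hochberg over 51670 transcript groups, and 11 comparisons were made. The SE is the log2 fold change over the square root of F. Depth was 14769909 to 21911024 counts, and folds against a group with no counts were taken against 3 counts over that group. Alternatives used DESeq2 1.42.0, limma 3.58.1 with quantile scaling, other filters, no fold minimum, fits of the compared groups alone, a replicate block and leaving out each library. Python 3.11.15, pandas 2.3.3, numpy 2.4.6 and matplotlib 3.10.9 were used. The scripts were tested on simulated data.

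The members, the lists and the tests were chosen with earlier results of these data known. Members were named by a rule: in each role the 3 with the highest mean CPM, and in every comparison the one called member per role and direction whose adjusted p was lowest. Beyond it, TPS1 (DN46598_c1_g2 and DN44468_c2_g2), TPS10, TPS7 (DN40797_c0_g1), TPS9 (DN36284_c0_g3), CIN3, STP1, SPS1 (DN55600_c0_g2) and ERD6-like 6 (DN43419_c0_g1) were named after their values were seen. The series' text speaks of 3 biological replicates, but nothing states that libraries came from separate plants, so the p-values speak of spread between samples that may be technical. The label of the control time, 0 days, differs from the titles of the Oregon controls, which say 3 days. Fantasy Love controls were matched to columns through the sample descriptions. No sequence is printed, because no reference was used here.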

Additional observations from a re-analysis of the deposited data

Results flagged for a closer look

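The response to cold differed between the cultivars, by the test of the difference itself (Fantasy Love minus Oregon, log2 scale, edgeR adjusted p below 0.05 and at least 2-fold), for the named members below. At 6 °C the largest positive differences were those of TPS9 (DN43152_c0_g4), at 6.42, and of the sucrose synthase 2 groups DN54386_c0_g2, at 4.09, and DN40119_c0_g1, at 3.84. The TPS9 value is a fitted one, since this transcript group had no counts in Fantasy Love at 25 °C, and it was 5.47 without replicate 3 of Fantasy Love at 6 °C. Further positive differences at 6 °C were 2.76 for SWEET1A (DN43180_c2_g2), 2.66 for STP14 (DN54680_c1_g1), 2.28 for TPP6 (DN35435_c0_g2), 1.63 for fructokinase-4 (DN46075_c0_g1), 1.63 for the sucrose synthase 2 group DN54386_c0_g1 and 1.24 for HXK1 (DN33523_c0_g8). STP1 (DN41971_c0_g3) differed by 3.26 (edgeR adjusted p = 0.0359), and by 5.32 without replicate 1 of Fantasy Love at 25 °C. TPS6 (DN53078_c0_g1) differed by 1.05. Without replicate 2 of Fantasy Love at 6 °C, the library that stood apart, the TPP6 difference was 1.45 and that of fructokinase-4 was 1.40 and no longer called (edgeR adjusted p = 0.0573). The TPP6 call was lost without replicate 3 of Oregon at 6 °C. The SWEET1A difference was 3.44 without replicate 1 of Oregon at 6 °C. TPS5 (DN44799_c1_g5), at -3.53, and PFK3 (DN49670_c0_g1), at -2.35, were the negative ones.

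At 4 °C the positive differences were 6.15 for TPS9 (DN43152_c0_g4), again a fitted value, 2.31 for DN54386_c0_g1, 2.22 for DN46075_c0_g1, 2.01 for STP14 (DN54680_c1_g1), 1.54 for TPS7 (DN56054_c1_g2) and 1.03 for TPS6 (DN53078_c0_g1). The negative ones were -2.21 for TPPG (DN51509_c0_g1), -2.18 for FLN1 (DN51503_c0_g1), -1.74 for PFK3 (DN49670_c0_g1), -1.72 for SWEET2A (DN48493_c0_g1), -1.69 for HXK2 (DN52322_c0_g1), -1.65 for ERD6-like 16 (DN55818_c1_g2), and -1.46 for both FRK2 (DN35212_c0_g3) and TPS5 (DN44799_c1_g5). In 8 of the 20 members that passed at 6 °C and 9 of the 20 at 4 °C, the call held without any 1 library.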

How the results depend on the processing

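Leaving out 1 library at a time gave 63 to 71 called members in Oregon at 6 °C (66 with all), 58 to 68 in Oregon at 4 °C (66), 62 to 72 in Fantasy Love at 6 °C (68) and 66 to 70 in Fantasy Love at 4 °C (69). From 6 °C to 4 °C the counts ran from 1 to 9 in Oregon (7) and from 3 to 24 in Fantasy Love (7). Between cultivars they ran from 25 to 39 at 25 °C (35), 20 to 41 at 6 °C (28) and 20 to 38 at 4 °C (34). For the difference in response they ran from 9 to 32 at 6 °C (20) and from 10 to 28 at 4 °C (20). With the other settings the 4 cold comparisons gave 66 to 74, 60 to 71, 55 to 74 and 61 to 76 called members. The lowest of these, 55 in Fantasy Love at 6 °C, came from a fit of the compared groups alone, in which the calls of SWEET2A (DN50007_c0_g1), INV1, CIN3, INV*DC4, STP1 and TPP6 named above were among those lost. A fit of the compared groups alone gave 12 for Oregon from 6 °C to 4 °C, 1 for Fantasy Love from 6 °C to 4 °C, 10 between cultivars at 6 °C and 11 for the difference in response at 6 °C. For Fantasy Love from 6 °C to 4 °C, quantile scaling gave 16, the DESeq2 Wald test 15 and no fold minimum 11. The direction of TPS9 (DN52582_c0_g5) in that comparison turned from -0.24 to 2.18 without replicate 3 of Fantasy Love at 6 °C, and without each other library it was -0.81 to 0.11. The cause of these shifts was not tested. Quantile scaling also moved the median of all transcript groups, for example from 0.36 to 0.00 in Oregon at 6 °C, and the share of all calls that were higher from 58.8% to 48.7% in Fantasy Love at 6 °C and from 20.3% to 44.3% from 6 °C to 4 °C. Of the members called with all libraries, 60 of 66, 54 of 66, 55 of 68 and 59 of 69 held in the 4 cold comparisons without any 1 library.

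Replicate numbers are shared between the groups, and no source states that they pair the samples. The residuals of the 18 pairs with the same number correlated by -0.0659 to 0.104. Pairs with different numbers were not compared, so these values cannot decide whether samples were paired. With the replicate block the counts of called members were 66, 65, 66 and 68 in the 4 cold comparisons, 5 and 6 from 6 °C to 4 °C, 35, 28 and 31 between cultivars, and 17 and 17 for the difference in response.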
